A study of Mus musculus with 20 samples.

Results

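Mature migratory dendritic cells (DCs) were followed through 10 genes, chosen by symbol from the gene count table: Ccr7, Fscn1, Marcksl1, Il4i1, Cacnb3, Tbc1d4, Cd40, Cd80, Cd86 and Traf1. These are 10 of the 24421 genes listed, and all 10 were among the 12465 genes with enough counts to be tested. The cells were murine bone marrow-derived dendritic cells (BMDCs), grown for 8 days from bone marrow of wild-type C57BL/6 mice with 40 ng/mL GM-CSF, a culture that holds DCs together with macrophage-like cells. Cells from each of 5 mice (A to E) received DMSO, the solvent, or 3.3 μM of the BET bromodomain inhibitor I-BET151 (iBET), together with ovalbumin (Ova) or IgG immune complexes of ovalbumin (IC) for 4 hours. This gave 4 groups of 5 libraries each, named by solvent or inhibitor and then stimulus (DMSO Ova and DMSO IC, iBET Ova and iBET IC), with every mouse in every group. The study states 5 replicates from independent mice. The sample titles give a running number and a group but no animal. The letters follow that number, so which libraries share a mouse is inferred from the order.

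The labels describe iBET and the stimulus as given simultaneously, whereas the study's methods place iBET 30 minutes earlier. The labels state 5% DMSO where DMSO was given and are silent on solvent where iBET was. The methods describe an iBET stock in DMSO that was diluted into the cultures, without a final DMSO content. A difference in DMSO content therefore cannot be told apart from iBET. The labels describe cells sorted into lysis buffer and the methods describe lysis in culture, and no sorting gate is given. Libraries held 16447491 to 29245150 counts (median 21764663). Levels are given as CPM, counts per 1000000 counts of a library after scaling with the TMM factors of edgeR, and the spread is the SD between mice.

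A DC that meets a maturation signal loads antigen, raises costimulatory ligands, and leaves its tissue through lymphatic vessels towards the T cell zone of the lymph node. CCR7, the receptor for the chemokines CCL19 and CCL21, directs that movement, and the actin-bundling protein fascin (Fscn1) and the actin-regulating protein MARCKS-like 1 (Marcksl1) belong to the cytoskeletal side of it. CD80 and CD86 engage CD28 on T cells, CD40 receives the signal of CD40 ligand, and the adaptor TRAF1 is an NF-κB target that acts downstream of receptors of the TNF receptor family. Il4i1 encodes a secreted L-amino acid oxidase, Cacnb3 a regulatory subunit of voltage-gated calcium channels, and Tbc1d4 a Rab GTPase-activating protein of vesicle traffic, and transcripts of these 3 genes are also used as markers of mature DCs. BET proteins bind acetylated histones and help RNA polymerase II into elongation, which is the step iBET acts on.

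The members lie on 8 chromosomes (GENCODE M21, GRCm38), and all are protein coding. Ccr7 lies on chromosome 11 from 99144196 to 99155077 on the minus strand, Fscn1 on chromosome 5 from 142960343 to 142973185 on the plus strand, and Traf1 on chromosome 2 from 34941750 to 34961772 on the minus strand. Cd80 (38455561 to 38496335, plus strand) and Cd86 (36603869 to 36666081, minus strand) lie on chromosome 16, and Cd40 lies on chromosome 2 from 165055627 to 165072948 on the plus strand. Marcksl1 lies on chromosome 4, Il4i1 on chromosome 7, Cacnb3 on chromosome 15 and Tbc1d4 on chromosome 14. Il4i1 overlaps 3 other genes of the count table, Nup62 on its own strand and Atf5 and Tbc1d17 on the other. The strand setting of the counting is not given in the sources used here, so part of the counts given to Il4i1 may belong to these neighbours.

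The promoters of Cd80, Fscn1 and Traf1 are shown because these genes had the largest differences between iBET and DMSO described below. Each run is the 250 bases before the start site in RefSeq, read 5′ to 3′ on the strand of the gene, on build GRCm38.p6. They stand at chr16:38458683-38458932 (plus strand), chr5:142960105-142960354 (plus strand) and chr2:34961773-34962022 (minus strand). Capitals mark matches to the motifs named after them.
Cd80: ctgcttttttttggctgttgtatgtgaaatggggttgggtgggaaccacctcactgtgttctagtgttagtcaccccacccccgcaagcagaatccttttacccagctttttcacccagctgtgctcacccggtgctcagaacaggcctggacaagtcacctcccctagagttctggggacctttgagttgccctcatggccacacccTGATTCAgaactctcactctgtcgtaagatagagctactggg
Fscn1: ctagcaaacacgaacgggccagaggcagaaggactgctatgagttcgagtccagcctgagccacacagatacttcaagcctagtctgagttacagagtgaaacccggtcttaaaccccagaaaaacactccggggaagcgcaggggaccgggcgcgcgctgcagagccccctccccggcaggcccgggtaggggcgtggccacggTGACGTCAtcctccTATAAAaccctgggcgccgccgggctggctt
Traf1: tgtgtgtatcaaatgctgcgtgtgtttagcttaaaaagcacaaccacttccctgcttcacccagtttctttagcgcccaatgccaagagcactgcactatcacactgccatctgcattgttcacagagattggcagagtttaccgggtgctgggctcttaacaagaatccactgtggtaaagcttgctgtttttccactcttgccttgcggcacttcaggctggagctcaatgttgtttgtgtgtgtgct
The capitals in Cd80 match the AP-1 pattern TGANTCA, where N is any base and here T, at -42 to -36 from the start site. Those in Fscn1 are a cAMP response element, CRE (TGACGTCA), at -45 to -38 and a TATA box (TATAAA) at -31 to -26. The search covered the 250 bases before and the 50 bases after each start site on both strands, in 8 windows of 7 members, since Cacnb3 has 2 windows. It also covered the consensus of NF-κB, the factor that CD40 and TRAF1 signal to. No member window held the NF-κB consensus, which 4.51% of 32851 RefSeq windows held. AP-1 was held by 1 of 8 member windows against 7.81% of all windows, CRE by 1 of 8 against 1.79%, and the TATA box by 2 of 8 against 13.6%, the other being Cd80 on the opposite strand at +5 to +10. A match describes letters only. The CRE and the TATA box were added to the search after the sequence of Fscn1 had been read. The printed run of Cd80 holds no GENCODE exon, and its start site lies inside the longer GENCODE gene, while 12 bases of the Fscn1 run fall in a GENCODE exon.

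Ccr7 had the highest level of the 10 members per kb of exon. On that scale its mean in DMSO Ova was 233 ± 113 CPM per kb (SD, n = 5), followed by Fscn1 at 89.0 ± 58.2, Marcksl1 at 55.2 ± 27.7 and Cacnb3 at 43.8 ± 23.7. Il4i1 (27.6 ± 16.1) and Cd86 (26.4 ± 10.5) came next, then Tbc1d4 (13.7 ± 6.85), Traf1 (7.40 ± 3.57), Cd80 (5.67 ± 3.06) and Cd40 (1.29 ± 0.804), again in CPM per kb. The ranges of mean ± SD overlap between neighbours in that order, except between Cd80 and Cd40. Cd40 was thin in reads, with 14 to 175 counts per library, whereas Ccr7 had 2023 to 18643.

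**Figure D1:**
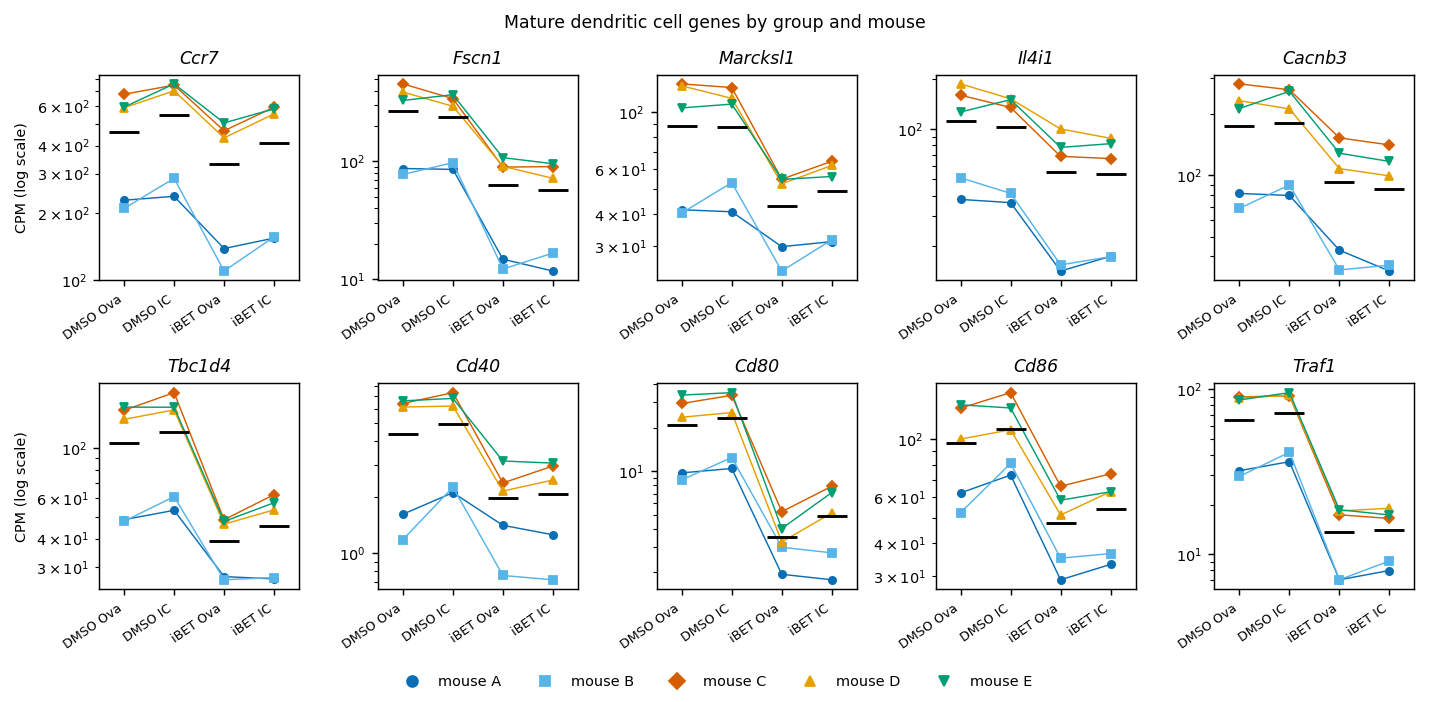
CPM of each gene on a log scale in the 4 groups, with each mouse as a marker joined by a line and the group mean as a black bar. Mice A and B lie below mice C, D and E in every panel and group, and the iBET groups lie below the DMSO groups in the line of every mouse.

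The first comparison asked what immune complexes did to these genes 4 hours after addition. In edgeR's quasi-likelihood test across the 12465 genes, 0 of 10 members passed an adjusted p of 0.05 in DMSO and 0 of 10 in iBET, and 0 of 10 had an unadjusted p under 0.05 in either. The Wald test of DESeq2 also called 0 in both. Over all genes tested, IC raised 9.59% and lowered 10.7% in DMSO, and raised 5.19% and lowered 6.63% in iBET. That balance depends on the scaling. With library size alone in place of TMM, 582 genes were higher and 2593 lower in DMSO, against 1196 and 1335, and 313 higher and 2030 lower in iBET, against 647 and 827. The median of all genes then moved to -0.13 and -0.12 on the log2 scale, and still 0 members were called in either. This test compares group means and holds the distance between mice in its error. Because the 4 libraries of a letter are taken to share their marrow, the counts of members called are also given with the mouse as a block. So are some of the fold changes and list counts. The block compares IC with Ova within a mouse. With the block 2 of 10 members were higher with IC in DMSO (18.3% of all genes higher, 19.8% lower) and 2 of 10 in iBET (14.2% higher, 14.7% lower), and none was lower. In bulk RNA, fewer cells of a type and less RNA per cell cannot be told apart, here and in all comparisons that follow.

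Ccr7, the chemokine receptor, was the one member higher with IC in all mice of both backgrounds. In DMSO Ova it measured 228, 209, 681, 592 and 596 CPM in mice A to E, and in DMSO IC 237, 285, 747, 705 and 757 CPM. In iBET Ova it measured 138, 109.7, 467, 433 and 506 CPM, and in iBET IC 154, 156, 595, 556 and 585 CPM. IC was above Ova in 5 of 5 mice with DMSO and in 5 of 5 with iBET, although the groups overlap because mice A and B are low in all of them. The log2 fold change was 0.24 ± 0.51 (SE) in DMSO and 0.31 ± 0.51 in iBET without the block (adjusted p = 0.791 and 0.768, edgeR). With the block it was 0.25 ± 0.09 in DMSO, 1.19-fold (adjusted p = 0.0371, edgeR), and 0.31 ± 0.09 in iBET, 1.24-fold (adjusted p = 0.0155, edgeR). With the block the call in DMSO held in 1 of 5 fits that leave out 1 mouse (without mouse A). It was lost without B, C, D or E, with adjusted p up to 0.0990 (edgeR), while the log2 fold change stayed between 0.20 and 0.30. In iBET the call held in 3 of 5 such fits and was lost without C or D (adjusted p up to 0.0740, edgeR). The log2 fold change there stayed between 0.27 and 0.35.

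Of the costimulatory ligands, Cd86 was called in DMSO and Cd80 in iBET, each with the block only. Cd86 measured 62.4, 52.5, 132, 100.3 and 136 CPM in DMSO Ova and 73.1, 81.0, 151, 109 and 132 CPM in DMSO IC, so that IC was above Ova in mice A to D and not in mouse E. Its log2 fold change with the block was 0.22 ± 0.07 (SE; adjusted p = 0.0291, edgeR), against an adjusted p of 0.730 without the block, and it was lost without mouse A, B or C (adjusted p up to 0.131). Cd80 measured 1.94, 2.98, 5.25, 3.24 and 4.02 CPM in iBET Ova and 1.78, 2.73, 7.87, 5.15 and 7.12 CPM in iBET IC. In mice A and B the Cd80 log2 ratio of IC over Ova was -0.12 and -0.13, against 0.57, 0.65 and 0.81 in the remaining mice. With the block Cd80 rose by a log2 fold change of 0.45 ± 0.16 (SE; adjusted p = 0.0358, edgeR), against an adjusted p of 0.592 without it. That call was lost without mouse C, D or E (adjusted p up to 0.156). In the background where it was not called, each of the 2 genes was higher with IC in 5 of 5 mice. With the block the log2 fold change of Cd80 in DMSO was 0.17 ± 0.11 (SE; adjusted p = 0.247, edgeR). That of Cd86 in iBET was 0.17 ± 0.08 (adjusted p = 0.115, edgeR).

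The other members had small differences with IC that passed in no fit of all 5 mice. Traf1 was higher with IC in 5 of 5 mice in DMSO, with a log2 fold change of 0.17 ± 0.07 (SE) and an adjusted p of 0.0670 with the block, and in 3 of 5 mice in iBET (0.08 ± 0.08). Cd40, the receptor upstream of it, was also higher in 5 of 5 mice in DMSO, with log2 ratios from 0.02 in mouse D to 0.89 in mouse B, and in 2 of 5 in iBET. Marcksl1 was higher in 2 of 5 mice in DMSO and in 5 of 5 in iBET, where its log2 fold change with the block was 0.19 ± 0.11 (adjusted p = 0.185, edgeR). For Fscn1 the mice split in both backgrounds, with IC above Ova in 2 of 5 mice and log2 ratios from -0.42 in mouse C to 0.33 in mouse B with DMSO. Il4i1 was higher with IC in 1 of 5 mice in DMSO and 3 of 5 in iBET, Cacnb3 in 2 and 1, and Tbc1d4 in 4 and 4. Over the 10 members the median log2 fold change with the block was 0.17 in DMSO and 0.12 in iBET, beside -0.02 and -0.01 over all genes tested.

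**Figure D2:**
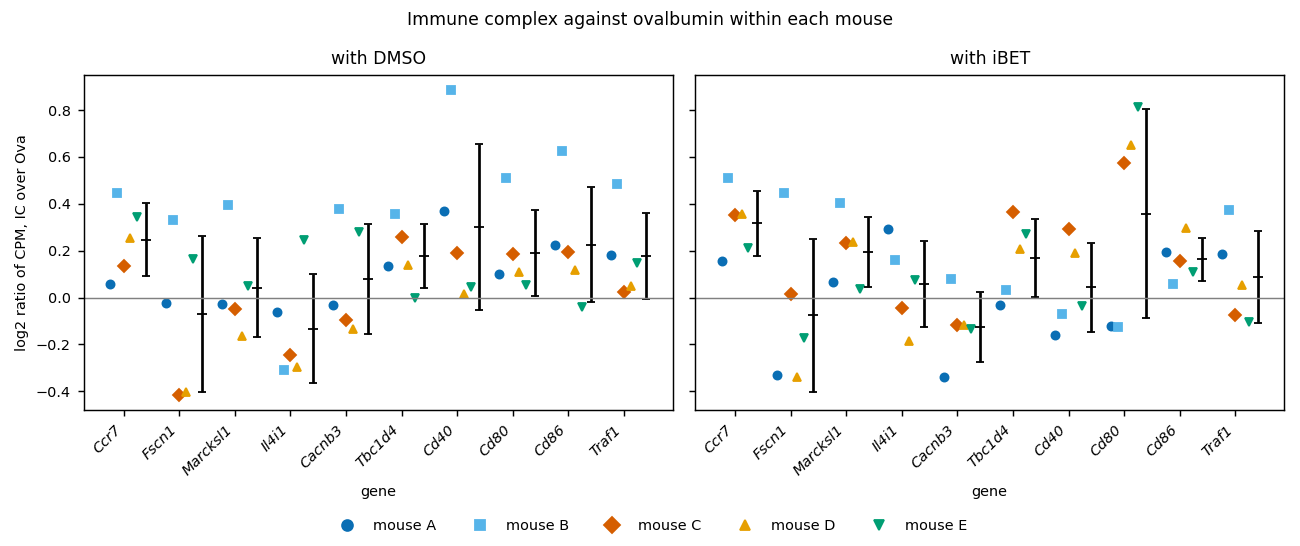
Log2 ratio of CPM, IC over Ova, within each mouse (coloured markers) for the 10 genes, with DMSO on the left and with iBET on the right, and the mean ± SD of the 5 mice in black. Ccr7 lies above 0 in every mouse on both sides, and Cd80 with iBET lies between -0.13 and 0.81.

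Mouse B had the highest IC ratio in DMSO for 9 members, Il4i1 being the exception. There its log2 ratio was 0.45 for Ccr7, 0.63 for Cd86 and 0.48 for Traf1, and 9 of 10 members were higher with IC. In mice A, C, D and E the number of members higher with IC in DMSO was 6, 6, 6 and 8. Mouse B also had the lowest DMSO Ova level of the 5 mice for the same 9 members. That level is the denominator of its IC ratio in DMSO, so both statements rest on the same library.

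The question whether iBET changed the response to IC was put to the interaction, the IC effect with iBET minus that with DMSO. No member passed, with an adjusted p of at least 0.999 in edgeR without the block and at least 0.504 with it, and 0 of 10 had an unadjusted p under 0.05 in either fit or in DESeq2. Over all genes the interaction called 0.0401% without the block and 0.818% with it. The difference was 0.06 ± 0.13 (SE, log2, with the block) for Ccr7 and -0.05 ± 0.11 for Cd86. It was largest for Cd80, at 0.28 ± 0.19, with mouse values from -0.63 in mouse B to 0.76 in mouse E. These intervals leave room for differences of the size of the IC effects themselves.

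The second comparison asked what iBET did under each stimulus, and it shares its groups with the first, so that the values of both stand on the same libraries. All 10 members were lower with iBET in 5 of 5 mice under Ova and in 5 of 5 under IC. The share of all genes lower in every mouse is not given here, and the shares that follow are of genes called. Without the block 6 of 10 passed under Ova (28.9% of all genes lower, 27.7% higher) and 6 of 10 under IC (29% lower, 27.1% higher), and 0 were higher. With the block all 10 passed under Ova (35.2% of all genes lower) and all 10 under IC (35.4% lower), and they also did so in each fit that leaves out 1 mouse. The median log2 fold change of the members with the block was -1.12 under Ova and -1.19 under IC, beside -0.00265 and -0.00424 over all genes.

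The adaptor Traf1 fell with the smallest SD between mice of the 10 members. It measured 32.1, 29.6, 89.8, 88.7 and 86.2 CPM in DMSO Ova for mice A to E, and 6.99, 6.99, 17.3, 18.3 and 18.6 CPM in iBET Ova. In DMSO IC it measured 36.4, 41.5, 91.5, 91.9 and 95.4 CPM, and in iBET IC 7.96, 9.09, 16.5, 19.0 and 17.3 CPM. The iBET and DMSO ranges did not overlap under either stimulus. Within mice the log2 ratio of iBET over DMSO under Ova lay between -2.37 and -2.07, although the level of Traf1 itself differed between mice. The log2 fold change was -2.26 ± 0.41 (SE) under Ova and -2.36 ± 0.41 under IC (adjusted p = 0.000100 and 6.26e-05, edgeR without the block).

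Cd80 was the other member whose groups did not overlap, so that 2 of 10 members had no overlap under Ova and 2 of 10 under IC, beside 19.5% and 21.6% of all genes with iBET wholly below DMSO. Cd80 measured 9.74, 8.71, 29.4, 23.6 and 33.6 CPM in DMSO Ova and 10.4, 12.4, 33.5, 25.4 and 34.9 CPM in DMSO IC, against the iBET values given above. Its log2 fold change was -2.60 ± 0.47 (SE) under Ova and -2.27 ± 0.46 under IC (adjusted p = 9.80e-05 and 0.000285, edgeR without the block). Under Ova the fall of Cd80 was smallest in mouse B, with a log2 ratio of -1.52, and largest in mouse E, with -3.04. Cd86, the second CD28 ligand, fell less. It measured 29.0, 35.1, 66.2, 51.4 and 58.5 CPM in iBET Ova and 33.3, 36.6, 73.9, 63.1 and 63.1 CPM in iBET IC, and its log2 fold change was -1.01 ± 0.30 under Ova and -1.02 ± 0.30 under IC (adjusted p = 0.00755 and 0.00696, edgeR without the block). Under Ova, mice A and B with DMSO lay within the range of mice C, D and E with iBET for Cd86, so the groups overlap.

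Fscn1, the actin-bundling protein, fell to a similar extent as Cd80 and Traf1. It measured 87.2, 77.6, 456, 389 and 329.9 CPM in DMSO Ova for mice A to E, and 14.8, 12.2, 89.6, 90.9 and 108 CPM in iBET Ova. In DMSO IC it measured 85.7, 97.6, 342, 294 and 369 CPM, and in iBET IC 11.7, 16.7, 90.5, 72.0 and 95.7 CPM. Mice A and B with DMSO were thus near the level that mice C, D and E had with iBET, and the groups overlap. The log2 fold change of Fscn1 was -2.09 ± 0.71 (SE) under Ova and -2.06 ± 0.71 under IC (adjusted p = 0.0176 and 0.0191, edgeR without the block). Without mouse C or mouse D these calls were lost (adjusted p up to 0.0687 under Ova and 0.0620 under IC), and with the block they held without any 1 mouse. Marcksl1, the other cytoskeletal member, fell by 1.04 ± 0.38 on the log2 scale under Ova (adjusted p = 0.0254) and was -0.85 ± 0.38 under IC (adjusted p = 0.0633, edgeR without the block), where the block gave -0.79 ± 0.10 (adjusted p = 2.08e-06). The Ova call of Marcksl1 was lost without mouse C, D or E unless the mouse was a block, with adjusted p up to 0.0888.

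Ccr7 had the smallest log2 fold change of the 10 members. It was -0.48 ± 0.51 (SE) under Ova and -0.42 ± 0.51 under IC without the block (adjusted p = 0.443 and 0.506, edgeR). With the block it fell by 0.57 ± 0.09 under Ova (adjusted p = 2.14e-05) and by 0.51 ± 0.09 under IC (adjusted p = 7.20e-05, edgeR). The mouse ratios of Ccr7 under Ova ran from -0.93 in mouse B to -0.24 in mouse E. The receptor Cd40 was -1.15 ± 0.51 under Ova (adjusted p = 0.0627, edgeR without the block), and fell by 1.27 ± 0.51 under IC (adjusted p = 0.0401), a call lost without mouse C, D or E (adjusted p up to 0.114). With the block Cd40 fell by 1.08 ± 0.16 and 1.24 ± 0.15 on the log2 scale.

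Tbc1d4 fell by 1.43 ± 0.39 on the log2 scale under Ova and by 1.37 ± 0.39 under IC (adjusted p = 0.00442 and 0.00570, edgeR without the block). Its mouse ratios under Ova were -0.83, -0.85, -1.59, -1.52 and -1.66, lower in mice C, D and E than in A and B. Il4i1 had the other order, with -1.42, -1.72, -1.22, -0.90 and -0.70. Cacnb3 had ratios from -1.11 to -0.73. Without the block Il4i1 and Cacnb3 missed the threshold under both stimuli, with adjusted p from 0.0801 to 0.212, and with it their log2 fold changes were -1.16 ± 0.11 and -0.93 ± 0.08 under Ova and -0.99 ± 0.11 and -1.14 ± 0.08 under IC. No test compared the size of the fall between mice.

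**Figure D3:**
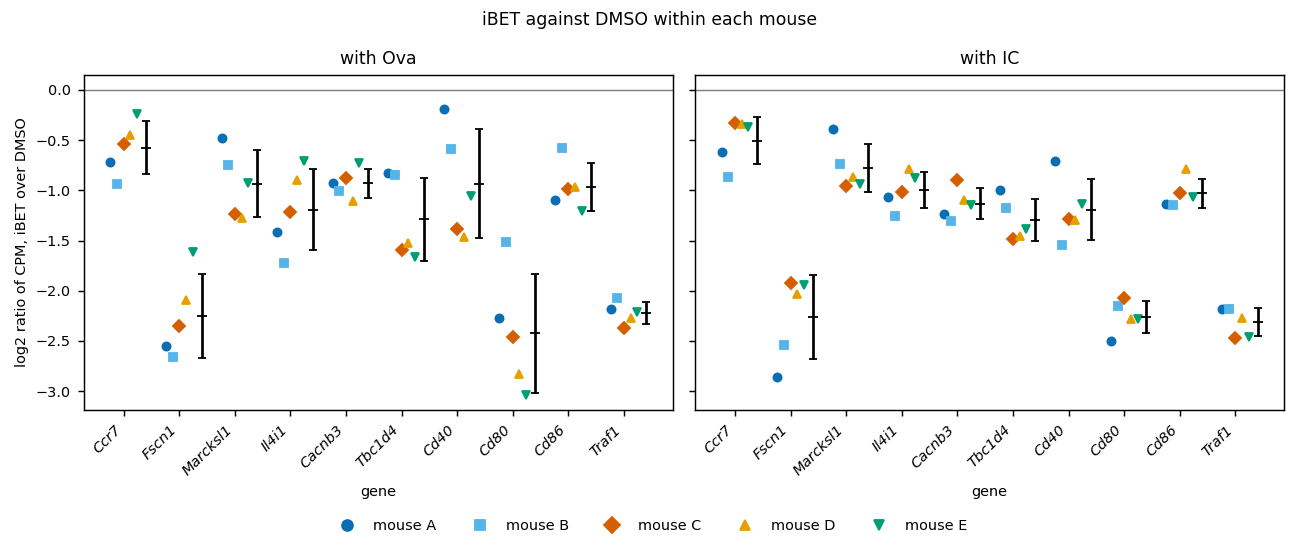
Log2 ratio of CPM, iBET over DMSO, within each mouse (coloured markers) for the 10 genes, under Ova on the left and under IC on the right, and the mean ± SD of the 5 mice in black. All points lie below 0, Ccr7 nearest to it, and Fscn1, Cd80 and Traf1 farthest, with Traf1 under Ova between -2.37 and -2.07.

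Markers of other cells were read beside the iBET result. The summed level of 8 macrophage markers, all tested, was 1396 to 2115 CPM in DMSO Ova and 1033 to 1467 CPM in iBET Ova, and 1563 to 2133 CPM in DMSO IC and 1094 to 1713 CPM in iBET IC. The sum of 9 DC markers, all tested, was 4547 to 7171 CPM in DMSO Ova and 4784 to 7369 CPM in iBET Ova, and 5282 to 8429 CPM in DMSO IC and 5696 to 9297 CPM in iBET IC. Thus the macrophage sum was lower with iBET and the DC sum was not, and the part of these sums in the fall of the members was not tested.

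The members differed between replicates in the same direction. In all 4 groups and for all 10 members mice A and B were the 2 lowest, which makes 40 of 40 combinations of gene and group, whereas 7.92% of all genes tested had A and B lowest in all 4 groups and 7.24% had them highest. The F test of edgeR for a difference between the 5 mice, with the group in the fit, called 10 of 10 members, beside 49.2% of all genes, with adjusted p from 3.35e-12 for Cacnb3 to 7.78e-08 for Cd40. This test compares these 5 mice only, because the 4 libraries of a mouse are taken to come from the same marrow.

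The size of the mouse difference varied by gene. Over the 4 groups the geometric mean of Fscn1 was 33.9, 35.4, 189, 166 and 188 CPM in mice A to E, 5.57-fold between the highest and the lowest. Il4i1 had 24.2, 27.5, 99.8, 126 and 105 CPM, or 5.20-fold, and here mouse D was the highest. For Ccr7 the ratio of the highest to the lowest mouse was 3.43, and it was 3.88 for Cd40, 3.80 for Cacnb3 and 3.22 for Cd80. Traf1 (2.56), Tbc1d4 (2.53), Marcksl1 (2.45) and Cd86 (2.17) differed least. The SD between mice on the log2 scale ran from 0.51 for Cd86 to 1.31 for Fscn1, beside a median of 0.13 over all genes tested.

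Of the variance of log2 CPM within groups, 91.4% (Cd80) to 98.5% (Cacnb3) lay between mice, with a median of 95.9% over the members and 54.5% over all genes tested. The order of mice C, D and E among themselves was not shared by the members, since C had the highest geometric mean for 7 of them, D for Il4i1 and Traf1, and E for Cd40. A library lay on the same side of its group mean for a member as for Ccr7 in 20 of 20 libraries for 8 of the other members, and in 19 of 20 for Cd80, where mouse D in iBET Ova was the exception. All 10 members were below the group mean in every library of mice A and B, and all 10 were above it in every library of mice C, D and E but that one.

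**Figure D4:**
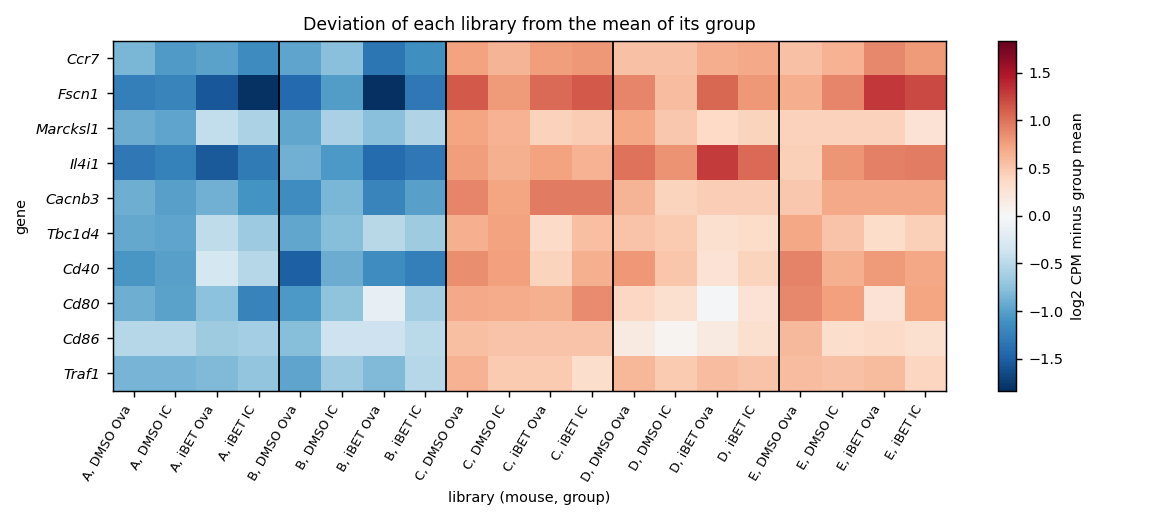
Log2 CPM minus the mean of the group for each gene (rows) in each of 20 libraries (columns, ordered by mouse), with red above and blue below the mean. All cells of mice A and B are blue, and the rest are red but for Cd80 in mouse D with iBET Ova.

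**Figure D5:**
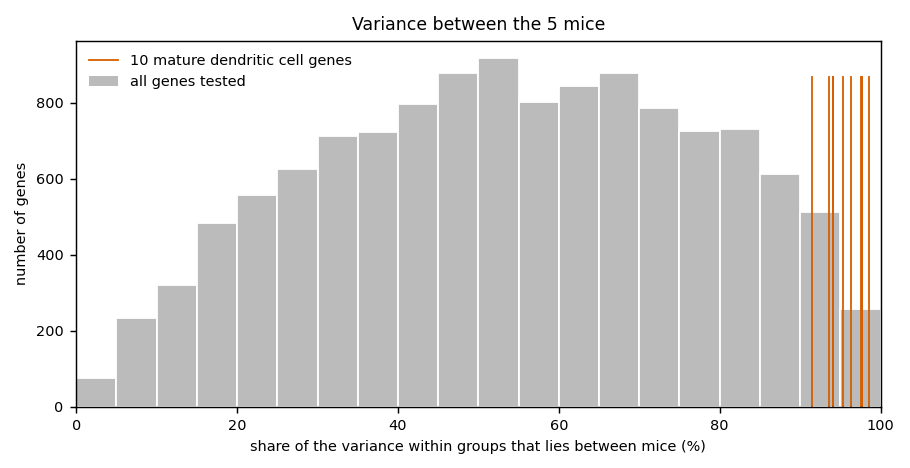
Number of the 12465 genes tested (grey bars, 5% wide) by the share of their variance within groups that lies between mice, with the 10 members as orange lines. The lines stand between 91.4% and 98.5%, and the median of all genes is 54.5%.

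Marker lists also differed between the mice. The DC marker sum had a median of 5636, 5033, 6522, 7899 and 6910 CPM over the 4 libraries of mice A to E. Cd74, which encodes the invariant chain of MHC class II, had means of 2296 and 2155 CPM in A and B, against 3609, 4397 and 3646 CPM. The MHC class II gene H2-Aa had 312 and 264 CPM against 554, 733 and 540 CPM, and H2-Ab1 265 and 233 CPM against 336, 482 and 333 CPM. Zbtb46, a transcription factor of classical DCs, had means of 15.1 and 15.1 CPM in A and B against 32.2, 33.1 and 34.2 CPM, while Itgax, which encodes CD11c, was at 2509 and 2225 CPM against 1808, 2107 and 1872 CPM. The macrophage sum was 1846 and 1791 CPM in A and B and 1422, 1456 and 1245 CPM in C to E. The neutrophil sum (6 of 9 markers tested) was 12.6 to 17.1 CPM in A and B and 19.5 to 52.7 CPM in C to E, with mouse E highest. The mast cell and basophil sum (2 of 5 markers tested) was 2.66 to 12.8 CPM over all libraries. Its medians were 5.06 and 4.99 CPM in A and B against 9.68, 6.95 and 8.22 CPM in C to E. The sum of the cDC1 markers Xcr1 and Clec9a (1 of 2 tested) was 1.11 to 9.31 CPM. Nearly all of it was Clec9a, since Xcr1 had at most 2 counts in a library. The sum was higher in A and B, with medians of 5.25 and 5.36 CPM against 2.02, 2.53 and 2.11 CPM in C to E. The B cell and T cell markers summed to at most 0.726 CPM and 0.420 CPM. Of the plasmacytoid DC markers, Siglech was at 0 counts in all 20 libraries and Ly6d at 1 count or none. The share of counts given to Rn45s, a ribosomal RNA precursor, was 2.69 to 4.44% in mouse A and 3.37 to 5.52% in B, against 5.67 to 7.83% in C, 4.72 to 5.93% in D and 4.78 to 8.61% in E. The part of these lists and of the Rn45s share in the difference between mice was not tested, and no date, pool or cage that would tell the mice apart is given in the labels.

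Genes that moved like Ccr7 were ranked over the 20 libraries by the root mean square difference in log2 CPM, after each gene was centred on its own mean. The nearest 5 of 12464 outside the members were Tspan13 (0.14), which encodes a tetraspanin, Cd83 (0.16), a surface marker of mature DCs, Ccl22 (0.17), a chemokine ligand of CCR4, Pkib (0.21), an inhibitor of protein kinase A, and Cytip (0.23), a regulator of cell adhesion. Cd83 measured 63.7, 59.0, 190.4, 185 and 196 CPM in DMSO Ova for mice A to E, the same step between B and C as in Ccr7. Members ranked from 30 for Cacnb3, 56 for Marcksl1 and 71 for Cd40 to 78 for Il4i1, 137 for Cd86 and 156 for Tbc1d4. Traf1, Fscn1 and Cd80, the 3 members that iBET lowered most, stood at ranks 4069, 5573 and 6756. The ranking joins the step between mice with the iBET difference, and the libraries of a mouse are not independent, so it carries no p.

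Other genes of the mature DC state were read as a list of 30, all tested. In DMSO without the block IC raised 5 and lowered 0 of them (2 and 1 with library size alone), beside 9.59% and 10.7% of all genes. With the block IC raised 9 and lowered 4, beside 18.3% and 19.8% of all genes. The median log2 fold change without the block was 0.06, beside -0.02 over all genes. Il12b, the p40 subunit of IL-12, rose by 0.95 on the log2 scale (adjusted p = 0.0323), Mreg, which encodes melanoregulin, by 0.88 (0.0472) and the CCR4 ligand Ccl17 by 0.73 (0.0143), all in edgeR without the block. iBET lowered 20 and raised 0 of the 30 under Ova, with a median log2 fold change of -0.97, and lowered 18 and raised 0 under IC, beside 28.9% and 29% of all genes lower. With the block it lowered 27 and raised 0 under Ova, and lowered 27 and raised 1 under IC, beside 35.2% and 35.4% lower. Among genes of the list with a mean of at least 100 counts, the largest falls under Ova were those of Pdcd1lg2, which encodes the PD-1 ligand PD-L2 (-3.93, adjusted p = 4.79e-10), Serpinb9, an inhibitor of granzyme B (-3.82, 4.39e-09), and Il12b (-2.62, 3.56e-06).

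The list for the signal from CD40 and TRAF proteins to NF-κB held 20 genes, all tested. In DMSO IC raised 7 and lowered 1 without the block (4 and 2 with library size alone), beside 9.59% and 10.7% of all genes. With the block it raised 11 and lowered 1, beside 18.3% and 19.8% of all genes. Those named by size were inhibitors of NF-κB, Nfkbie (0.77, adjusted p = 0.00703), Tnfaip3 (0.74, 0.0129) and Nfkbia (0.56, 0.0351), which NF-κB itself induces. Under Ova iBET lowered 10 and raised 2 of the 20, with Tnfaip3 at -1.75 (adjusted p = 7.06e-07), the ubiquitin ligase Birc3 at -1.51 (6.23e-10) and the NF-κB subunit Relb at -1.10 (0.00461). Under IC the counts were also 10 lower and 2 higher. Of all genes, 28.9% were lower and 27.7% higher under Ova, and 29% and 27.1% under IC. The median log2 fold change of the list was -0.28 under Ova and -0.30 under IC, beside -0.00287 and -0.00537 over all genes. The interaction called 0 of the 20 without the block and with it Ikbkg, the regulatory subunit of the IκB kinase (-0.38, adjusted p = 0.0106, edgeR), which is named after its values were seen. With the block the list had 1 such call without mouse A or E and 0 without B, C or D. Over all genes the interaction called 0.0401% without the block and 0.818% with it.

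The list for chemotaxis through CCR7 held 22 genes, of which 19 were tested. The ligand genes Ccl19 and Ccl21a and the scavenging receptor Ackr4 were too low to test. IC raised 2 and lowered 1 in DMSO without the block, beside 9.59% and 10.7% of all genes, and raised 8 and lowered 3 with it, beside 18.3% and 19.8%. With library size alone the split turned to 0 raised and 4 lowered. Dock8 fell by 0.83 (adjusted p = 0.00439), and Pik3r5, a subunit of PI3Kγ, and Msn, which links actin to the membrane, rose by 0.60 (0.0403) and 0.19 (0.0162). iBET lowered 10 and raised 1 under Ova, beside 28.9% and 27.7% of all genes. Under IC it lowered 8 and raised 1, beside 29% and 27.1%. The medians of the list were -0.25 and -0.25, beside -0.00287 and -0.00537 over all genes. Under Ova the catalytic subunit Pik3cg stood at -1.26 (adjusted p = 1.22e-05), Dock8 at -1.03 (0.000121) and Pik3r5 at -0.93 (0.000586), in edgeR without the block.

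Relatives of the members were read last, as 11 genes of which 6 were tested. Fscn2, Fscn3, Cacnb2, Ctla4 and Cd40lg, the ligand of CD40, were too low to test. Cd28, the receptor of CD80 and CD86, was raised by IC in DMSO (0.77, adjusted p = 0.00444) and lowered by iBET under Ova (-3.68, adjusted p = 8.59e-11, edgeR without the block), and it is named here after its values were seen. IC raised 1 and lowered 0 of the 6 in DMSO, beside 9.59% and 10.7% of all genes. In iBET it also raised 1 and lowered 0, beside 5.19% and 6.63%. Under Ova iBET lowered 5 and raised 0, beside 28.9% and 27.7% of all genes. Under IC it lowered 4 and raised 0, beside 29% and 27.1%. These counts are without the block. With the block IC raised 2 and lowered 1 in DMSO, beside 18.3% and 19.8% of all genes. In iBET it raised 1 and lowered 1, beside 14.2% and 14.7%. With the block iBET lowered 5 and raised 0 under Ova, beside 35.2% of all genes lower. Under IC it lowered 5 and raised 1, beside 35.4% lower and 4065 of 12465 genes higher.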

How the data were processed

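RNA was sequenced from 20 BMDC libraries, 5 mice in each of 4 groups taken from the labels. Per the labels and the study's methods, the authors made stranded total RNA libraries, trimmed the reads with Trim Galore, aligned them with HISAT2 to mm10, and counted them per gene with featureCounts. The authors deposited raw counts per gene, which were used here. A deposited table of normalized values was not used. Tool versions and the annotation, strand and multi-mapping settings of the counting are not given in the sources used here.

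Genes were filtered with filterByExpr, scaled with TMM (factors 0.924 to 1.08) and tested with edgeR 4.0.16 (quasi-likelihood F test, group as the only term, all 20 libraries, R 4.3.3), with Benjamini-Hochberg adjustment over 12465 genes and a threshold of 0.05. The block added the mouse as a term, because libraries with the same letter are taken to come from the same animal. That is inferred from the running number of the sample titles, which name no animal. In 30 pairs of libraries of the same mouse, deviations from the group means correlated at 0.307 to 0.675 (median 0.515). Same-group libraries differed by more than sampling noise in all 40 pairs (lowest chi-square per degree of freedom 12.5). Log2 CPM used a prior count of 2 and, for level and mouse ratios, values came from the same scaled CPM. Depth of 16447491 to 29245150 counts sets the precision, which is lowest for Cd40.

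The alternatives were DESeq2 1.42.0, its size factors, library size alone, no filter, the libraries of the 2 groups only, surrogate variables (sva 3.50.0, 3 variables), mice A and B only, mice C, D and E only, and each mouse left out. Each mouse left out together with the block was added after seeing the data. The named genes are the 10 members, the 5 tested genes nearest to Ccr7, and from each of 3 lists up to 3 genes with the largest change by IC in DMSO and by iBET under Ova, among those past the threshold with a mean of at least 100 counts. The members and lists were chosen with earlier results of these data known. Scripts were tested on simulated data.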

Additional observations from a re-analysis of the deposited data

How the results depend on the processing

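The number of members called depended on the mouse term. With the replicate block (edgeR, and DESeq2 with the block) 2 members were called for IC in DMSO and 2 in iBET, and 10 for iBET under Ova and 10 under IC, against 0, 0, 6 and 6 without it. Surrogate variables gave 1 for IC in iBET and 10 for iBET under each stimulus. Mice C, D and E alone gave 1 for IC in DMSO, 1 in iBET and 10 for iBET under both stimuli, and mice A and B alone gave 10 for iBET under IC. Leaving out 1 mouse, with or without the block, gave 0 to 1 members for IC in DMSO, 0 to 2 in iBET, and 4 to 10 for iBET under Ova and 4 to 10 under IC. Over all genes, IC in DMSO called 2531, with the block 4755 (DESeq2 with the block 4611), with mice A and B 500, and with a mouse left out 1180 to 4594. IC in iBET called 1474, with the block 3601 (DESeq2 with the block 3600), by library size 2343, with surrogate variables 2687, with mice A and B 296, and with a mouse left out 643 to 3818. The interaction called 5, with the block 102, by DESeq2 24 (with the block 185), with surrogate variables 50, with mice A and B 0 (edgeR), with mice C, D and E 13, and with a mouse left out 0 to 61.

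The following log2 fold changes changed sign, none of them past the threshold in any of these fits. For IC in DMSO, Fscn1 was 0.14 in mice A and B, Cacnb3 was -0.071 by library size, and Marcksl1 was 0.032 with the block, 0.034 by DESeq2 with the block, 0.0081 with no filter, 0.045 with surrogate variables and 0.19 in mice A and B. For IC in iBET, mice A and B gave 0.080 for Fscn1, 0.24 for Il4i1, -0.16 for Cd40 and -0.092 for Cd80, the block gave 0.032 for Il4i1 (0.043 by DESeq2), library size gave -0.052 for Cd40 and -0.082 for Traf1, surrogate variables gave -0.037 for Cd40, and mice C, D and E gave -0.043 for Traf1. For the interaction, Fscn1 was -0.037 with the block, -0.028 by DESeq2 with the block, -0.071 with surrogate variables and -0.063 in mice A and B. Tbc1d4 was -0.0052 with the block, -0.0071 by DESeq2 with the block and -0.23 in mice A and B, Cd80 was -0.39 in mice A and B, and mice C, D and E gave 0.020 for Cd40 and 0.071 for Cd86. With a mouse left out, IC in DMSO ranged from -0.30 to 0.026 for Fscn1, -0.040 to 0.087 for Marcksl1 and -0.044 to 0.13 for Cacnb3. IC in iBET ranged from -0.073 to 0.10 for Il4i1, -0.033 to 0.12 for Cd40 and -0.019 to 0.12 for Traf1. The interaction ranged from -0.012 to 0.14 for Ccr7, -0.17 to 0.18 for Fscn1, -0.080 to 0.088 for Tbc1d4 and -0.11 to 0.058 for Cd86. The cause was not tested. The difference between mice was called for 10 of 10 members with the size factors of DESeq2, by library size, with no filter, by the likelihood ratio test of DESeq2 and without each mouse, and was not run within mice A and B or within C, D and E. The direction under iBET was lower for all 10 under each alternative run.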
